A study of Mus musculus with 20 samples.

Results

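The ERBB receptors and their transcriptional feedback regulators were followed as 9 genes, chosen by their symbols among the 45777 genes of the deposited table of TPM (transcript abundance scaled for length and to one fixed total per library). These were the receptors Egfr, Erbb2, Erbb3 and Erbb4, the leucine-rich repeat proteins Lrig1 and Lrig3, and the Sprouty genes Spry1, Spry2 and Spry4. RNA-seq was performed on 1 uterine horn from each of 20 mated wild-type B6D2F1 females aged 8 to 12 weeks, collected at 18:00 on day 3.5, with 5 mice per group. The control group received neither RU486 nor intrauterine administration. The implantation failure (IF) group received 3 mg/kg RU486, an antagonist of the progesterone and glucocorticoid receptors, subcutaneously at 9:00 on day 3.5, and had no intrauterine administration. The PBMC group received the same RU486 dose after 50000 peripheral blood mononuclear cells per horn on day 1.5, taken from non-pregnant mice and cultured without hCG. In the PBMC-hCG group the cells were cultured with 5 IU/mL human chorionic gonadotropin before the same administration and the same RU486 dose. Because the IF mice had no intrauterine administration, the cells and the procedure cannot be told apart in comparisons with IF, and a group given culture medium with hCG but no cells was not analysed here. A vehicle injection of the control mice is not described, so RU486 and its injection cannot be told apart in IF against control. In PBMC and PBMC-hCG against control, RU486, the cells and the procedure cannot be told apart.

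ERBB receptors are tyrosine kinases of the cell surface that pair with each other when a ligand of the EGF or neuregulin family binds, and they pass the signal to the RAS-ERK and PI3K-AKT cascades. ERBB2 binds no ligand of its own and ERBB3 has little kinase activity, so both act mainly through their partners. The signal induces its own brakes: LRIG1 lowers receptor protein at the membrane, and Sprouty proteins dampen RAS-ERK signaling downstream of receptor tyrosine kinases. In the mouse uterus, EGF-family ligands are known for their part in the exchange between the epithelium, the blastocyst and the stroma around attachment.

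The upstream sequences of Lrig1, Spry1 and Spry2 are shown because these 3 genes were higher in each RU486-treated group than in control. RefSeq (GRCm38.p6) gave a window of 250 bases before the start for 7 of the 9 genes, with none for Erbb3 and Spry4. The capitals mark the GC box, GGGCGG on either strand, which 32.7% of all 32851 promoters held. The 97 bases before the annotated 5′ end of Lrig1 (chr6:94700299-94700395, minus strand) and the 250 bases before Spry1 (chr3:37639697-37639946, plus strand) and Spry2 (chr14:105896820-105897069, minus strand) read as follows, 5′ to 3′.
Lrig1: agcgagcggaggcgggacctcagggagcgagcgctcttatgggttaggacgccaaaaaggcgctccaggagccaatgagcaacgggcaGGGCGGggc
Spry1: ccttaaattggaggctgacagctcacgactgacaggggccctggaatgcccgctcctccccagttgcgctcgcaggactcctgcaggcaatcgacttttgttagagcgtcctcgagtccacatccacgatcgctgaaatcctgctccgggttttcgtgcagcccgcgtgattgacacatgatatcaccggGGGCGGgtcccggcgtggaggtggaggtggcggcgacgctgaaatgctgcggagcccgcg
Spry2: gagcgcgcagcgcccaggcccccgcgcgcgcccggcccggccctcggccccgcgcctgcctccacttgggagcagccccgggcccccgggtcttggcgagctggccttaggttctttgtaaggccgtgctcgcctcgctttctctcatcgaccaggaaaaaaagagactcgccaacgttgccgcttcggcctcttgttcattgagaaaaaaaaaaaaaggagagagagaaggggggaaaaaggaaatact

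These windows were rich in G and C, at 71.6% for the 250 bases of Lrig1 and 62.4% for those of Spry1 and Spry2, where the median of all promoters was 52.4%. On both strands of the 7 windows, no match was found to the estrogen response element (GGTCA and TGACC, 3 bases apart, in 0.0639% of all promoters), the progesterone or glucocorticoid response element (GNACA and TGTNC, 3 bases apart, 0.387%), the AP-1 site (TGANTCA, 6.75%) or the cAMP response element (TGACGTCA, 1.55%). The ETS core (CCGGAA, 12.0%) was in the windows of Egfr and Erbb4, and the GC box was in those of Egfr, Lrig1, Lrig3 and Spry1. A missing match says only that these letters are not in the window.

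Library totals lay between 999989 and 999999 TPM, so read depth cannot be told from the table. The p-values rest on the spread between libraries, in which counting error and differences between mice cannot be separated. The tests covered the 18706 genes that exceeded 0 TPM in each of the 20 libraries, among them 8 of the 9 followed here. Replicates correlated with r between 0.961 and 0.992, and no columns were identical. The control library of replicate 2 stood apart, with summed adipose markers (Adipoq, Plin1 and Cidec) of 87.9 TPM where no other library passed 12.3 TPM, and Prss29, a gland marker, at 13969 TPM. Epithelial, stromal and myometrial markers were present in every library, so the tissue was whole uterus. In such bulk RNA, fewer cells of a type and less RNA per cell cannot be told apart.

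In control uteri Erbb4 was near 0, and the other followed genes had means between 6.92 and 26.4 TPM. TPM is scaled per transcript length, so levels can be set beside each other. Spry2 (26.4 ± 3.07 TPM, SD, n = 5), Egfr (25.8 ± 5.33), Erbb2 (24 ± 5.0), Spry1 (22.6 ± 3.14), Erbb3 (17.4 ± 3.20) and Lrig1 (17.4 ± 2.21) followed each other in mean level with overlapping ranges between neighbours. Lrig3 (13.1 ± 1.40 TPM) and Spry4 (6.92 ± 1.58 TPM) came below them, each with a range clear of the gene above. Over all 20 libraries Spry2 lay above 75.7% of the tested genes in mean TPM and Spry4 above 39.9%. In the PBMC-hCG group the order was Spry2, Erbb2, Spry1, Erbb3, Egfr, Lrig3, Lrig1 and Spry4, and the ranges of neighbours overlapped down to Lrig1.

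**Figure D1:**
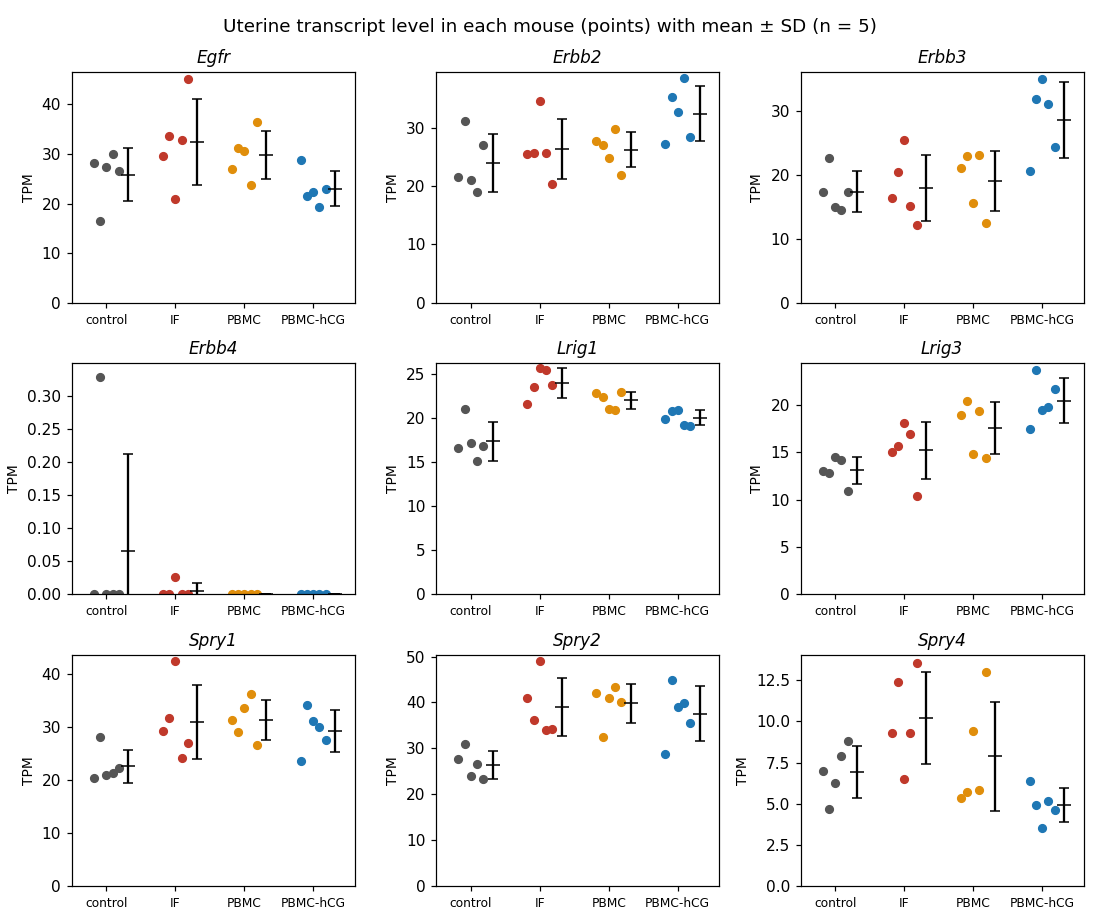
TPM of the 9 genes (vertical axes, each from 0) in each mouse (points, replicates 1 to 5 from left to right) in the 4 groups, with mean ± SD (bars, n = 5). Lrig1 and Spry2 in IF lay above all control mice, Spry4 in PBMC-hCG lay below all IF mice, and Erbb4 was above 0 in 2 of 20 libraries.

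The question of the first comparison was how RU486-treated uteri differed from control uteri on the evening of day 3.5. Against control, 3 of the 8 tested genes rose in the IF group by limma at adjusted p under 0.05, namely Lrig1, Spry1 and Spry2, and none fell. Of all tested genes 21.9% were called, 13.4% as higher and 8.53% as lower. By the criterion used in the study (fold change of at least 2 with unadjusted p under 0.05) none of the 8 passed, beside 4.03% of all tested genes. The ranges of the 5 IF and 5 control mice did not overlap for 2 of the 8 (Lrig1 and Spry2), beside 12.8% of all tested genes. The median log2 fold change on the log2(TPM + 0.1) scale was 0.38 over the 8 genes and 0.02 over all tested genes.

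Lrig1 (chr6:94604529-94700298) encodes a membrane protein that binds ERBB receptors and promotes their removal. Its level in replicates 1 to 5 was 16.6, 21.1, 17.2, 15.1 and 16.8 TPM in control and 21.6, 23.6, 25.7, 25.5 and 23.8 TPM in IF. The PBMC mice had 22.8, 22.4, 21.1, 20.9 and 22.9 TPM, and the PBMC-hCG mice 19.9, 20.9, 20.9, 19.3 and 19.2 TPM. Every IF mouse was above every control mouse, and every PBMC-hCG mouse was below every IF mouse. Lrig1 was 1.39-fold higher in IF than in control (log2 fold change 0.47, SE 0.07, limma adjusted p = 0.000164), and this call held in every alternative fit that kept the same threshold. Its level was still 0.35 above control on the log2 scale in PBMC (adjusted p = 0.00253) and 0.21 above control in PBMC-hCG (adjusted p = 0.0354), and the latter call was lost with quantile normalization (0.15, adjusted p = 0.159), with median-of-ratios scaling (0.14, adjusted p = 0.216) and in the fit of the 2 groups alone (adjusted p = 0.0887). The PBMC-hCG to control call was also lost without any one of control 1, 3, 4 or 5 or PBMC-hCG 1, 2 or 3 (adjusted p from 0.0509 to 0.104).

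Spry2 (chr14:105891947-105896819) encodes a Sprouty inhibitor of RAS-ERK signaling. The control mice had 27.5, 30.8, 23.9, 26.6 and 23.2 TPM and the IF mice 40.9, 36.2, 49.1, 34.0 and 34.3 TPM. In the PBMC group the values were 42.1, 32.5, 40.9, 43.3 and 40.1 TPM, and in the PBMC-hCG group 28.7, 44.8, 39.1, 39.8 and 35.4 TPM. All IF and PBMC mice lay above the highest control mouse, whereas 1 PBMC-hCG mouse, at 28.7 TPM, lay inside the control range. Spry2 rose 1.46-fold in IF against control (log2 fold change 0.55, SE 0.12, adjusted p = 0.00294), 1.51-fold in PBMC (adjusted p = 0.00191) and 1.41-fold in PBMC-hCG (adjusted p = 0.00442). These comparisons share the 5 control mice, and the 3 calls were kept in each alternative fit at the same threshold.

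Spry1 (chr3:37639947-37644599), another Sprouty inhibitor, stood at 20.3, 28.1, 21.0, 21.3 and 22.4 TPM in control and at 29.2, 31.8, 42.6, 24.2 and 27.1 TPM in IF. The PBMC mice had 31.3, 29.1, 33.6, 36.4 and 26.7 TPM and the PBMC-hCG mice 23.7, 34.2, 31.3, 30.0 and 27.6 TPM. The groups overlapped through control replicate 2, which was high for its group. Spry1 was 1.35-fold higher in IF than in control (log2 fold change 0.43, SE 0.13, adjusted p = 0.0256), 1.39-fold higher in PBMC (adjusted p = 0.0174) and 1.30-fold higher in PBMC-hCG (adjusted p = 0.0397). The IF call was lost in the fit of the 2 groups alone (adjusted p = 0.0759) and without control 1, 3 or 4 or IF 2 or 3 (adjusted p from 0.0528 to 0.0690), the PBMC call without PBMC 4 (adjusted p = 0.0513). The PBMC-hCG call was lost with no filter (adjusted p = 0.0636), under both other scalings (0.0771 and 0.0978), and without control 1, 3, 4 or 5 or PBMC-hCG 2, 3, 4 or 5 (0.0528 to 0.105).

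The remaining members did not pass the threshold between IF and control. Spry4, a Sprouty gene of lower level, had a log2 fold change of 0.54 (95% interval 0.02 to 1.06, adjusted p = 0.131). For Egfr the value was 0.32 (−0.06 to 0.70, adjusted p = 0.237), for Lrig3 it was 0.19 (adjusted p = 0.349), for Erbb2 0.14 (−0.16 to 0.44, adjusted p = 0.541) and for Erbb3 0.02 (adjusted p = 0.964). These intervals leave room for changes in either direction for Egfr and Erbb2.

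Marker genes of several cell types were called in the same comparison. Of all tested genes 21.9% were called there, and 12.8% had no overlap between the groups. All 4 endothelial markers were higher in IF than in control, with summed levels of 385 to 413 TPM against 247 to 333 TPM. Of the 8 epithelial markers 5 were higher and 1 (Cldn3) was lower, with sums of 1033 to 1365 TPM in IF and 771 to 1379 TPM in control. Of the 7 stromal markers 1 was higher and 2 were lower, of the 6 myometrial markers 1 was lower, and of the 5 tested leukocyte markers 3 were higher. Stromal sums were 6169 to 7169 TPM in IF and 4502 to 5892 TPM in control, with no overlap. Leukocyte sums, at 137 to 192 and 119 to 132 TPM, did not overlap either. Myometrial sums overlapped, at 5635 to 6706 and 5640 to 9219 TPM. Of the 4 gland markers 1 was lower (Foxa2, −0.89, adjusted p = 0.00366), and of the 5 ovary and oviduct markers 1 was lower (Ovgp1, −0.93, adjusted p = 0.0314), each with no overlap. For the myometrial, gland and ovary and oviduct lists, 1 called marker is near the 21.9% of all tested genes. Gland sums were 1382 to 7526 TPM in IF and 412 to 18717 TPM in control, and ovary and oviduct sums 13.6 to 28.6 and 22.9 to 30.7 TPM. The adipose markers Adipoq, Plin1 and Cidec were each at 0 in some libraries. The part of these markers in the changes of Lrig1, Spry1 and Spry2 was not tested.

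**Figure D2:**
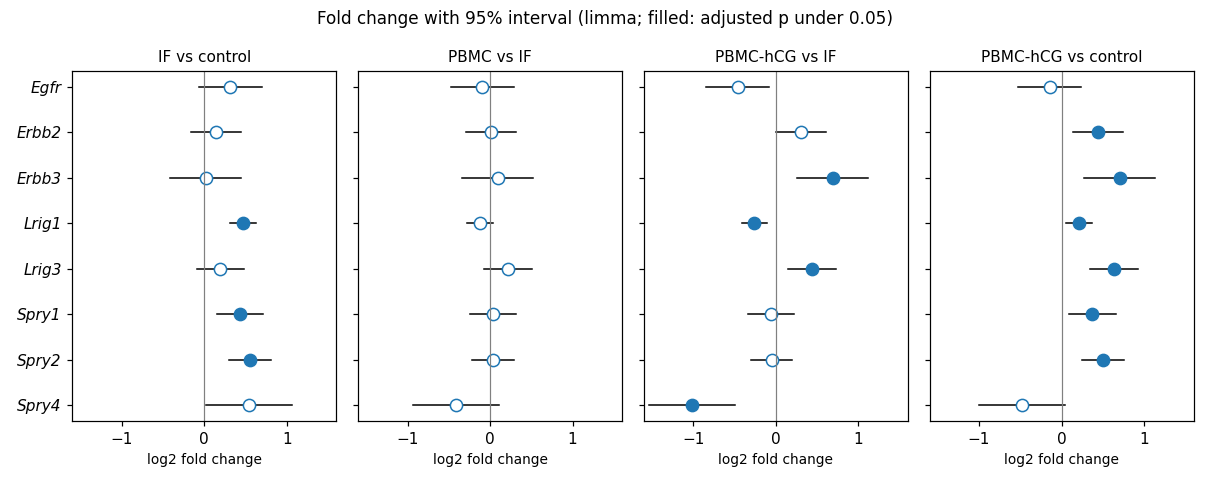
Log2 fold change on the log2(TPM + 0.1) scale with its 95% interval (limma) for the 8 tested genes in 4 comparisons, with filled points for adjusted p under 0.05. Lrig1, Spry1 and Spry2 are filled in IF against control, none is filled in PBMC against IF, and Erbb3 and Lrig3 lie to the right and Lrig1 and Spry4 to the left of 0 in PBMC-hCG against IF.

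The next comparisons asked what intrauterine PBMC, with or without hCG in their culture, changed in RU486-treated uteri. Between PBMC and IF none of the 8 genes was called by limma and none had an unadjusted p under 0.05; 0 of the 18706 tested genes were called (0%), and 1271 (6.79%) had an unadjusted p under 0.05. The log2 differences ran from −0.42 for Spry4 (95% interval −0.94 to 0.10) to 0.22 for Lrig3 (−0.07 to 0.51). For Egfr the interval was −0.47 to 0.29 and for Erbb3 −0.34 to 0.52, so shifts of this size in either direction are not excluded.

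Between PBMC-hCG and IF, Erbb3 and Lrig3 rose and Lrig1 and Spry4 fell, which was 4 of the 8 genes where 13.6% of all tested genes were called, 7.61% as higher and 5.99% as lower. By the study's criterion 1 of the 8 passed (Spry4), beside 2.31% of all tested genes, and ranges were apart for 2 (Lrig1 and Spry4), beside 7.24%. The calls depended on single libraries. Without IF 2, 4 or 5, or without PBMC-hCG 2, 3, 4 or 5, limma called 0 of the 8 genes. Of the 8, 4 to 6 then had an unadjusted p under 0.05. In the fit of all 20 libraries 6 of the 8 had such a p, beside 35% of all tested genes. Limma called 2 of the 8 without IF 1, 6 without IF 3 and 5 without PBMC-hCG 1, beside 12.5%, 27.1% and 22.3% of all tested genes. Across all tested genes the called share also dropped, to between 0% and 0.182%, in the 7 fits where none of the 8 was called. No fold change of the 4 called genes changed sign in any of these fits.

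Erbb3 (chr10:128567523-128589635), a receptor for neuregulins, was present at 17.3, 22.6, 15.0, 14.5 and 17.4 TPM in control and at 16.4, 20.6, 25.5, 15.2 and 12.1 TPM in IF. The PBMC mice had 21.1, 23.0, 15.6, 23.1 and 12.5 TPM, and the PBMC-hCG mice 20.6, 31.9, 35.0, 31.1 and 24.5 TPM. PBMC-hCG mice 2, 3 and 4 lay above the other 3 groups, while mice 1 and 5 lay within the IF range. Erbb3 was 1.61-fold higher in PBMC-hCG than in IF (log2 fold change 0.69, SE 0.21, adjusted p = 0.0392) and 1.63-fold higher than in control (0.71, adjusted p = 0.0135). The difference from control held in every alternative fit at the same threshold, whereas that from IF was lost with no filter (adjusted p = 0.0645) and without any one of 8 libraries (adjusted p from 0.0543 to 0.130). Against PBMC the log2 difference was 0.60 (95% interval 0.17 to 1.03) with an unadjusted p of 0.00921 and a limma adjusted p of 0.271.

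Lrig3 (chr10:125966219-126015359), a relative of Lrig1, was measured at 13.1, 12.8, 14.5, 14.2 and 10.9 TPM in control and at 15.0, 15.6, 18.1, 16.9 and 10.3 TPM in IF. The PBMC group had 18.9, 20.4, 14.9, 19.3 and 14.3 TPM and the PBMC-hCG group 17.5, 23.7, 19.5, 19.8 and 21.7 TPM. All PBMC-hCG mice were above all control mice, and 1 of them was within the IF range. The rise against IF was 1.36-fold (log2 fold change 0.44, SE 0.14, adjusted p = 0.0437), and that against control was 1.56-fold (0.64, adjusted p = 0.00196). The latter was kept in all alternative fits at this threshold. The call against IF was lost with no filter (adjusted p = 0.0688), in the fit of the 2 groups alone (0.0599) and without any one of 8 libraries (0.0567 to 0.138), and the rise of PBMC over control (log2 fold change 0.41, adjusted p = 0.0409) with no filter (0.0631) and without any one of 6 libraries (0.0533 to 0.108).

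The decreases were those of Lrig1 and Spry4. Lrig1 was 1.2-fold lower in PBMC-hCG than in IF (log2 fold change −0.26, adjusted p = 0.0361), a call that was also lost with no filter (adjusted p = 0.0532). Spry4 (chr18:38586247-38601347) had 6.97, 4.67, 6.26, 7.90 and 8.79 TPM in the control mice and 9.29, 12.4, 6.50, 9.31 and 13.5 TPM in the IF mice. The PBMC mice had 5.36, 5.70, 9.40, 5.85 and 13.0 TPM, and the PBMC-hCG mice 6.36, 4.90, 3.51, 5.15 and 4.62 TPM. The highest PBMC-hCG mouse (6.36 TPM) was just below the lowest IF mouse (6.50 TPM). Spry4 fell 2.03-fold against IF (log2 fold change −1.02, SE 0.25, adjusted p = 0.0287), and its difference from control was −0.48 (95% interval −1.0 to 0.04, adjusted p = 0.150). The comparisons of IF with control and of PBMC-hCG with IF share the 5 IF mice.

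Egfr (chr11:16752203-16913907), the receptor for EGF and related ligands, had 28.3, 16.5, 27.5, 30.1 and 26.7 TPM in control, 29.6, 33.6, 21.0, 32.9 and 45.1 TPM in IF and 27.0, 31.3, 30.6, 23.7 and 36.4 TPM in PBMC. In PBMC-hCG the values were 28.9, 21.6, 22.4, 19.4 and 22.9 TPM. All 5 lay within the control range, 4 of them only through control replicate 2. These 4 were below the other control mice (26.7 to 30.1 TPM), and PBMC-hCG mouse 1, at 28.9 TPM, was among them. The log2 difference between PBMC-hCG and IF was −0.46 (95% interval −0.84 to −0.08, adjusted p = 0.0848), and it passed the threshold without IF 3 (adjusted p = 0.0180) or PBMC-hCG 1 (0.0464). Erbb2 (chr11:98412484-98437716), the preferred partner of the other receptors, had 27.1 to 38.6 TPM with a median of 32.7 in PBMC-hCG. The other groups had 19 to 31.2 TPM (control, median 21.6), 20.4 to 34.5 TPM (IF, median 25.6) and 21.9 to 29.7 TPM (PBMC, median 27.1). Its log2 difference from IF was 0.30 (adjusted p = 0.139), which passed the threshold without IF 3 (0.41, adjusted p = 0.0393). Erbb2 was 1.36-fold higher in PBMC-hCG than in control (0.44, SE 0.14, adjusted p = 0.0247), a call that was lost with median-of-ratios scaling (adjusted p = 0.0598) and without control 1, 3 or 4 or PBMC-hCG 2 or 4 (0.0570 to 0.0721).

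Erbb4 (chr1:68031884-69108576), a neuregulin receptor with full kinase activity, was listed at 0 in 18 of 20 libraries. It was above 0 in control replicate 2 (0.329 TPM) and IF replicate 3 (0.0261 TPM), and it was not tested.

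Between PBMC-hCG and PBMC, limma called 0 of the 8 genes, beside 2 of all 18706 tested genes (0.0107%). At an unadjusted p under 0.05 there were 2 of the 8 (Erbb3 and Spry4), beside 16.2% of all tested genes. Spry4 was lower in PBMC-hCG by −0.60 on the log2 scale (95% interval −1.12 to −0.08, limma adjusted p = 0.286). Against control, 4 of the 8 genes were higher in PBMC (Lrig1, Lrig3, Spry1 and Spry2; 19.5% of all tested genes were called) and 6 of the 8 were higher in PBMC-hCG (the same 4 with Erbb2 and Erbb3; 31.8% were called). The shares of all tested genes called higher and lower were 12.8% and 6.7% in PBMC and 20.2% and 11.6% in PBMC-hCG. None of the 8 passed the study's criterion in either, beside 3.34% and 4.74% of all tested genes. With median-of-ratios scaling 3 of the 8 were called by limma in PBMC-hCG against control, beside 30.8% of all tested genes. Markers were called in PBMC-hCG against control as well, 6 of 8 epithelial (5 higher) and 5 of 7 stromal (2 higher). Of the myometrial markers 4 of 6 were lower, and 4 of 4 endothelial and 4 of 5 leukocyte markers were higher. In PBMC against control the calls were 5 of 8 epithelial (4 higher), 5 of 7 stromal (2 higher) and 0 of 6 myometrial. There 4 of 4 endothelial and 1 of 5 leukocyte markers were higher. The part of these markers in the differences from control was not tested.

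Summed epithelial markers were 1159 to 1522 TPM in PBMC-hCG and 1033 to 1365 TPM in IF, with overlapping ranges. Of the 8 markers 1 (Krt8, log2 difference 0.45) passed the threshold between these groups, and the others ran from −0.41 (Krt7) and −0.22 (Epcam) to 0.76 (Krt19). Myometrial sums were 4525 to 5658 TPM in PBMC-hCG and 5635 to 6706 TPM in IF. Limma called 0 of the 6 markers, and 2 had an unadjusted p under 0.05. Of all tested genes 13.6% were called between these groups and 35% had an unadjusted p under 0.05. The 1 of 8 epithelial markers called and the 2 of 6 myometrial markers at an unadjusted p are near these shares. At an unadjusted p under 0.05 there were 4 of the 8 epithelial markers (Krt8, Krt18 and Krt19 higher, Epcam lower). The ranges of Krt19 did not overlap. Of the 7 stromal markers 2 were called as higher (Pdgfra and Hoxa10), and 5 had an unadjusted p under 0.05. Of the 3 red cell markers 1 (Hbb-bs) was called as lower, and 2 had an unadjusted p under 0.05. The part of these markers in the differences of Erbb3, Lrig1, Lrig3 and Spry4 was not tested.

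The balance within each family was examined as each gene's percent of the summed TPM of its family, a ratio that does not depend on library scaling. The summed ERBB receptor level was 67.2 ± 3.63 TPM in control, 76.8 ± 4.0 in IF, 75.1 ± 4.39 in PBMC and 84.0 ± 7.24 in PBMC-hCG (SD, n = 5). Egfr made up 42.4% ± 11.5 of it in IF and 27.8% ± 6.32 in PBMC-hCG, a difference of −14.6 percentage points (two-sided exact permutation p = 0.0317). Erbb3 went from 23.3% ± 5.90 to 33.8% ± 4.50 (10.5 points, exact permutation p = 0.0159), and Erbb2 had 34.3% ± 5.93 and 38.4% ± 3.16 (4.11 points, exact permutation p = 0.206). The ranges of the IF and PBMC-hCG mice overlapped for each of the 3 receptors.

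Lrig1 contributed 61.5% ± 4.63 of the Lrig1 and Lrig3 sum in IF and 49.6% ± 2.88 in PBMC-hCG, with no overlap (58.6% to 69.7% and 46.8% to 53.2%, exact permutation p = 0.00794, the smallest that 5 against 5 mice can give). Within the Sprouty sum, Spry4 was 13.1% ± 4.31 in IF and 7.03% ± 2.30 in PBMC-hCG (exact permutation p = 0.0317). After Benjamini-Hochberg adjustment over 48 shares and comparisons no share passed (smallest adjusted p = 0.139 by the exact permutation test). With so many tests a lone share at the smallest possible p of 0.00794 could not have passed, so this outcome says little. The shares counted include that of Erbb4, which was at 0 in most libraries. Unadjusted, 4 of 8 shares passed between PBMC-hCG and IF, 3 between PBMC-hCG and PBMC, 4 between PBMC-hCG and control, and 0 in each of the other 3 comparisons.

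**Figure D3:**
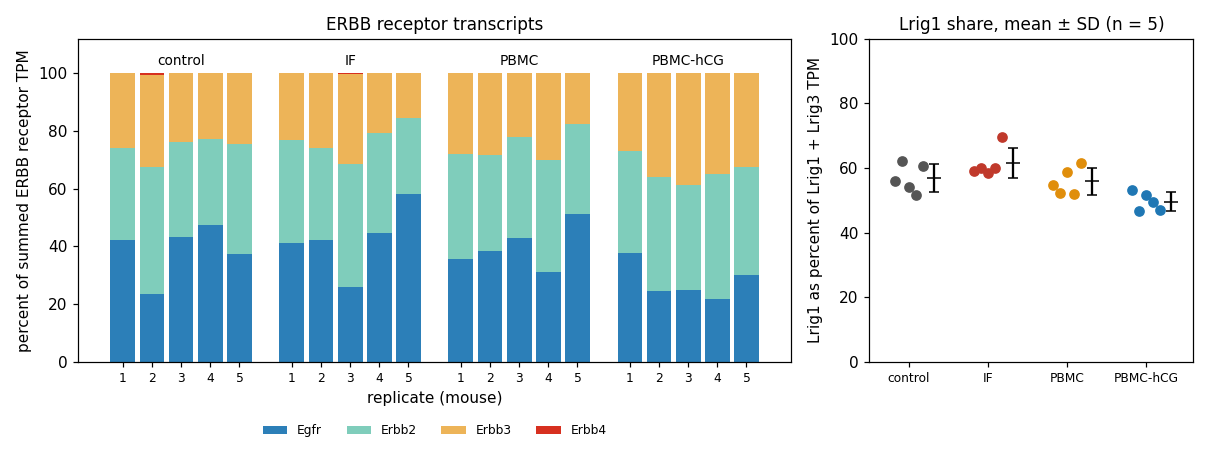
Left, percent of the summed ERBB receptor TPM held by Egfr, Erbb2, Erbb3 and Erbb4 in each of the 20 mice. Right, Lrig1 as percent of Lrig1 + Lrig3 TPM in each mouse with mean ± SD (n = 5); the PBMC-hCG mice lay between 46.8% and 53.2% and the IF mice between 58.6% and 69.7%.

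Members varied with each other between mice of the same group, and so did many other genes. Deviations from the group mean on the log2(TPM + 0.1) scale were correlated over the 20 mice for 28 pairs, with 100000 permutations within groups, an examination chosen after the values were seen. After Benjamini-Hochberg adjustment both Pearson's r and Spearman's rho passed for 14 pairs, 7 positive and 7 negative, and none of these included Lrig1. Many other genes deviated in the same way. The median absolute r of Egfr with the 15770 other genes of at least 1 TPM was 0.50. An absolute r of at least 0.5 was reached with Egfr by 50.2%, with Spry2 by 28.9% and with Lrig1 by 17.5% of those genes. The other tested members lay between Spry2 and Egfr. How many pairs with other genes would pass was not counted, so the 14 pairs are not read as particular to these members. Each r is therefore given with the percent of those genes that reached it.

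Egfr and Erbb2 deviated in opposite directions (r = −0.91, rho = −0.84, permutation p = 1e-05 for each, the smallest that these permutations can give). Their adjusted p-values in the permutation test were 0.00014 and 0.00028, and r was −0.84 without the 2 mice farthest from the median of Egfr. As strong an r was reached with Egfr by 1.24% and with Erbb2 by 0.0888% of the genes. Erbb2 and Erbb3 deviated together (r = 0.85, rho = 0.84, permutation p = 1e-05 and 3e-05, adjusted 0.00014 and 0.00042, r without 2 mice 0.80, reached by 0.862% of genes with Erbb2 and 1.70% with Erbb3). Spry1 and Spry2 did so too (r = 0.80, rho = 0.77, permutation p = 0.00044 and 0.00061, adjusted 0.00189 and 0.00345, r without 2 mice 0.69, reached by 2.94% and 0.216% of genes).

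For Egfr and Spry4 the values were r = 0.75 and rho = 0.73 (permutation p = 0.0005 and 0.00113, adjusted 0.00189 and 0.00399, r without 2 mice 0.65), and 19.1% of genes had as strong an r with Egfr and 15.3% with Spry4, so this pair did not stand out from the background. For Egfr and Erbb3, r was −0.81 and rho −0.73 (permutation p = 0.00016 and 0.00114, adjusted 0.00149 and 0.00399, r without 2 mice −0.75), reached by 11.7% and 5.02% of genes. The labels name no batch, and groups of 5 mice are too small for an r of their own.

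**Figure D4:**
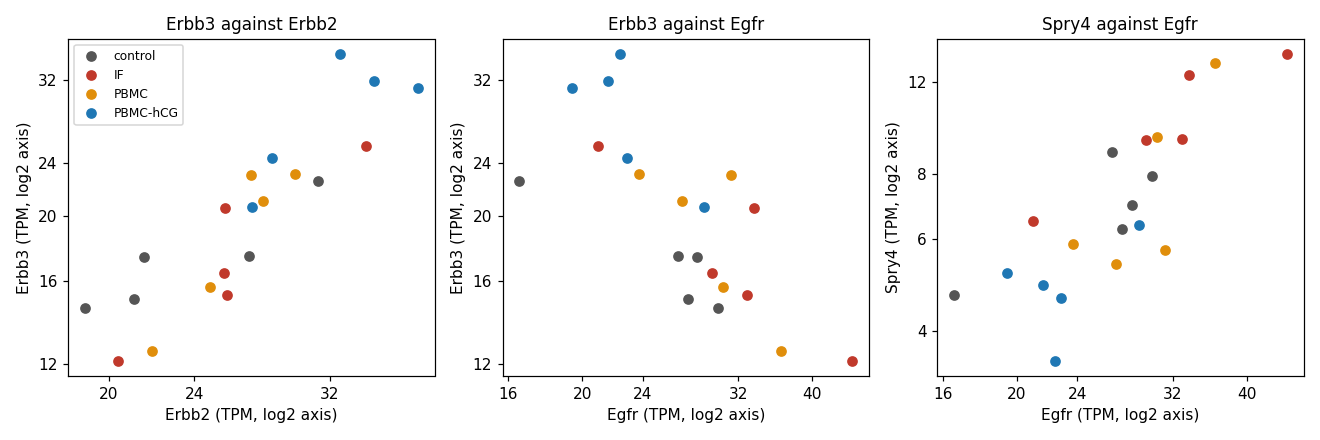
TPM of Erbb3 against Erbb2, Erbb3 against Egfr and Spry4 against Egfr on log2 axes, 1 point per mouse, coloured by group. Within groups Erbb3 was higher in mice with more Erbb2 (r = 0.85) and lower in mice with more Egfr (r = −0.81), and Spry4 was higher in mice with more Egfr (r = 0.75).

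The genes whose levels followed each member most closely over the 20 mice, group differences included, are given by Pearson's r of log2(TPM + 0.1) among 15771 genes, as a description. Spry1 and Spry2 were each other's closest gene (r = 0.90). For Egfr the closest were Gm2423, Gnb1 and Exoc5 (r = 0.95 to 0.96), for Erbb2 Ccpg1, Vps37d and Nectin4 (0.93 to 0.94), and for Erbb3 Hsdl1, Tmem106c and Slc44a2 (0.94 to 0.95). Lrig1 was followed by Rbpms, Foxl2os and Rab17 (0.89 to 0.92) and Lrig3 by Atf7, Kdm6a and Rfx3 (0.94 to 0.95). For Spry4 they were Gm15801, Gm8783 and Ptp4a1 (0.97), after Spry2 those of Spry1 were Insig2 and Irs2 (0.88 to 0.89), and after Spry1 those of Spry2 were Shld1 and Cep85l (0.88).

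Of the other genes of the pathway, 77 of 78 listed were in the table and 72 were tested. Between IF and control 38 of the 72 changed, 34 higher and 4 lower, and by the study's criterion 8 passed, beside 21.9% and 4.03% of all tested genes. Between PBMC-hCG and IF 16 changed, 3 higher and 13 lower, and 3 passed the study's criterion, beside 13.6% and 2.31% of all tested genes. Without IF 2, 4 or 5 or PBMC-hCG 2, 3, 4 or 5 limma called 0 of the 72. Of the 72, 29 to 32 then had an unadjusted p under 0.05. In the fit of all 20 libraries 35 of the 72 had such a p, beside 35% of all tested genes. Limma called 27 of the 72 without IF 3 or without PBMC-hCG 1, beside 27.1% and 22.3% of all tested genes. The median log2 fold change over the 72 genes was 0.25 and −0.12 in these comparisons, where that of all tested genes was 0.02 and 0.05. With the filter at a mean of 1 TPM, 39 and 17 pathway genes were called, beside 25% and 16.8% of all tested genes. Members and lists were chosen with earlier results of these data known, so shares above those of all genes are given as description only.

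Among ERBB ligands 5 of 7 tested changed between IF and control. Nrg1, the neuregulin that binds ERBB3 and ERBB4, had 0.288 to 1.37 TPM in control (median 0.819) and 11.4 to 27.1 TPM in IF (median 17.8), a log2 fold change of 4.51 (SE 0.35, adjusted p = 8.87e-08). Every RU486-treated mouse had more Nrg1 than any control mouse, with log2 fold changes of 3.71 in PBMC and 3.09 in PBMC-hCG against control. Nrg4, another neuregulin, was lower in IF (−1.70), and Btc (1.26), which binds EGFR and ERBB4, and the neuregulin Nrg2 (1.05) were higher.

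Hbegf, the heparin-binding ligand of EGFR, was 3.97, 6.43, 4.66, 4.87 and 6.07 TPM in control, 9.63, 8.66, 11.3, 7.15 and 14.3 TPM in IF and 5.37, 3.45, 3.43, 4.62 and 3.62 TPM in PBMC-hCG. The PBMC mice had 4.98, 5.54, 12.3, 7.45 and 17.0 TPM. The IF mice lay above all control and all PBMC-hCG mice, while the PBMC mice ran from the control level to above every IF mouse. Its log2 fold change was 0.94 in IF against control (adjusted p = 0.0197) and −1.28 in PBMC-hCG against IF (adjusted p = 0.0258), where Nrg1 fell as well (−1.42, adjusted p = 0.0287). Areg, Ereg, Epgn and Nrg3 were not above 0 in all libraries and were not tested.

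Of the 17 tested negative regulators outside the followed genes, 10 were higher and 1 lower in IF than in control. The lower one was Errfi1, an inhibitor that binds the EGFR kinase domain, with 165, 267, 203, 217 and 222 TPM in control and 106, 87.9, 128, 75.2 and 86.0 TPM in IF. The PBMC-hCG mice had 97.3, 53.2, 43.4, 55.8 and 54.0 TPM. Every IF and PBMC-hCG mouse was below every control mouse (log2 fold changes −1.16, adjusted p = 0.00199, and −1.86, adjusted p = 2.53e-05), opposite in direction to Lrig1, Spry1 and Spry2. The ERK phosphatases Dusp5 (0.74) and Dusp6 (0.48) and the Sprouty-related Spred3 (0.50) were higher in IF. Dusp6 (−0.71) and the phosphatase Ptpn1 (−0.49) were lower in PBMC-hCG than in IF, which was 2 of the 17, near the 13.6% of all tested genes called there.

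Among adaptors and kinases 12 of 29 changed between IF and control, all 12 higher. The transcription factor Stat5a had the largest of these log2 fold changes (0.84), followed by the ERK kinase Map2k1 (0.47) and the PI3K catalytic subunits Pik3cb (0.44) and Pik3ca (0.38). Between PBMC-hCG and IF 7 of the 29 changed, among them Stat5a (−0.56) and Map2k1 (−0.42), lower, and the docking protein Gab1 (0.50), higher. Of the 8 ligand sheddases and partners 4 were higher in IF, namely the iRhom gene Rhbdf2 (0.69), the tetraspanin Cd9 (0.44) and the proteases Adam17 (0.32) and Adam10 (0.28), and 1 (the iRhom gene Rhbdf1, −0.35) was lower in PBMC-hCG than in IF.

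Genes known to respond to ERK did not move as 1 block. Of 11 tested, 4 were higher and 2 lower in IF than in control, among them Fos (log2 fold change 1.71) and Ier3 (1.02), higher, and Myc (−1.04) and Ccnd1 (−0.97), lower. Between PBMC-hCG and IF 4 of the 11 fell, namely Maff (−1.01), Etv4 (−0.87), Plaur (−0.78) and Ier3 (−0.76). None of the 11 rose in that comparison at this threshold.

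**Figure D5:**
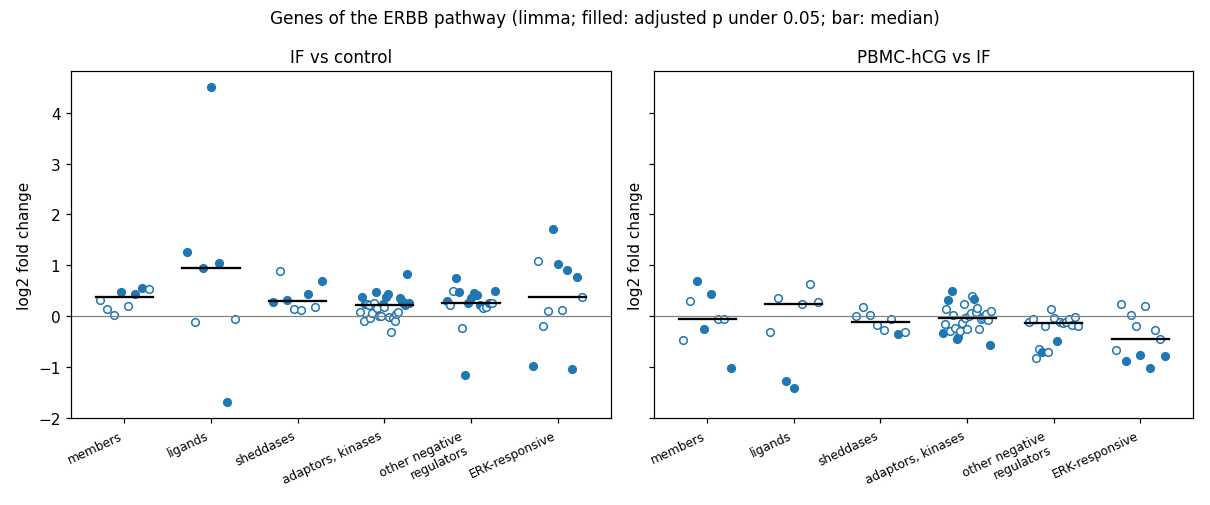
Log2 fold change (limma) of the 8 tested members and of 72 other pathway genes by list, in IF against control (left) and PBMC-hCG against IF (right), with filled points for adjusted p under 0.05 and a bar at each median. Nrg1 stands at 4.51 in IF against control, and list medians in PBMC-hCG against IF run from −0.44 (ERK-responsive genes) to 0.23 (ligands).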

How the data were processed

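Uterine RNA-seq of 20 mice in 4 groups of 5 was analysed, with groups and replicate numbers from the labels. The deposited values are TPM, which the authors made with Trimmomatic, HISAT2 (mm10) and StringTie (versions not given in the sources used here). Every column of the table was mapped to a sample (0 left out). The authors' edgeR test on counts cannot be repeated on TPM. Genes above 0 TPM in all 20 libraries were fitted on log2(TPM + 0.1) in 1 limma model (3.58.1, R 4.3.3) with 4 group means and a variance trend, Benjamini-Hochberg adjusted over 18706 genes and called at adjusted p under 0.05. A fold change on this scale understates changes of low genes. Family shares were compared with two-sided exact permutation tests (252 arrangements, scipy 1.17.1). The fit was tested on simulated data.

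All 9 members were named, with up to 4 called genes per pathway list (largest change) and the 3 genes most correlated with each member; 1 gene the rule names is not reported here. Areg, Ereg and the member pairs were added after their values were seen. Members and lists were chosen with earlier results of these data known. The replicate numbers do not pair mice. Gene positions and promoter windows came from RefSeq, GRCm38.p6. Alternatives were 2 other pseudocounts (0.01 and 1), a filter at a mean of 1 TPM and no filter, quantile and median-of-ratios scaling, no variance trend, the 2 groups alone, a replicate block, the study's criterion and leaving out each mouse.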

Additional observations from a re-analysis of the deposited data

Results flagged for a closer look

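In 2 of 32 groups of 5 mice (8 members in 4 groups), 1 mouse lay far from the others by the gap to its nearest neighbour over the range, and chance alone gives about 1 in 20, or 1.6 groups. Both were control replicate 2. Its Egfr was 16.54 TPM, the lowest of the control mice, with the nearest at 26.66 TPM (gap over range 0.749). Its Spry1 was 28.08 TPM, the highest, with the nearest at 22.37 TPM (0.738). The same library had 42.1 TPM of Adipoq, 13.8 TPM of Plin1 and 32 TPM of Cidec, where the other control mice had at most 1.70 TPM of any of them, and their part in the Egfr and Spry1 values was not tested. Without this mouse the number of members called was 3 for IF, 3 for PBMC and 6 for PBMC-hCG, each against control. Of all tested genes 26.8%, 24.7% and 40.2% were then called, where the fit with this mouse called 21.9%, 19.5% and 31.8%.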

How the results depend on the processing

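Of the log2 fold changes, those of Lrig1 and Spry2 in IF, of Lrig1 and Spry2 in PBMC, and of Erbb3, Lrig3 and Spry2 in PBMC-hCG, each against control, kept direction and call in every alternative at adjusted p under 0.05. By the study's criterion the members called were 0 in IF, 0 in PBMC and 0 in PBMC-hCG against control and 1 in PBMC-hCG against IF, and the pathway genes called were 8, 7, 10 and 3, with 1 in PBMC-hCG against PBMC. With no filter (30695 genes tested) PBMC-hCG against IF gave 1 member and 7 pathway genes, beside 2.65% of all tested genes. Median-of-ratios scaling gave 3 members in PBMC-hCG against control, beside 30.8% of all tested genes. Leaving out each mouse, members called ran from 2 to 3 (IF against control), 0 to 6 (PBMC-hCG against IF), 2 to 4 (PBMC against control, 2 without PBMC 4) and 3 to 6 (PBMC-hCG against control, 3 without control 1, 3 or 4 or PBMC-hCG 2), and pathway genes from 30 to 38, 0 to 27, 28 to 36 and 26 to 40. Signs turned only for differences that were not called. Erbb2 in PBMC against IF (0.01) was −0.0116 with median-of-ratios scaling, and Erbb3 in IF against control (0.02) was −0.0006 with quantile normalization and −0.0126 with median-of-ratios scaling. Leaving out each mouse, log2 differences that turned sign ran, in PBMC against IF, from −0.24 to 0.0354 (Egfr), −0.0797 to 0.11 (Erbb2), −0.0354 to 0.23 (Erbb3), −0.0425 to 0.16 (Spry1) and −0.0052 to 0.13 (Spry2). Others ran from −0.12 to 0.15 (Erbb3, IF against control), −0.14 to 0.0601 and −0.12 to 0.0406 (Spry1 and Spry2, PBMC-hCG against IF), −0.16 to 0.0014 (Spry2, PBMC-hCG against PBMC) and −0.0779 to 0.24 (Spry4, PBMC against control). Family shares that turned sign ran, in percentage points and IF against control, from −0.223 to 7.84 (Egfr), −3.23 to 1.02 (Erbb2), −0.110 to 0.0065 (Erbb4) and −0.706 to 2.21 (Spry4). In PBMC against IF they ran from −6.64 to 1.41 (Egfr), −1.40 to 2.68 (Erbb2) and −0.0018 to 3.96 (Erbb3). In PBMC against control they ran from −2.63 to 3.41 (Egfr), −1.94 to 1.62 (Erbb2), −1.80 to 1.33 (Erbb3), −1.40 to 1.05 (Spry1) and −2.52 to 0.213 (Lrig1). For Spry1 they ran from −0.524 to 1.93 in PBMC-hCG against PBMC and −0.285 to 1.49 in PBMC-hCG against control. The cause of these shifts was not tested.

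The replicate numbers do not pair the mice: libraries of the same number had deviations correlated by r of −0.25 to 0.46 (median −0.01), 8 of 30 pairs were over 0.1, and 2 of 20 libraries correlated best with their own number. With the replicate block the members called stayed at 3, 0, 4, 0, 4 and 6 (IF against control, PBMC against IF, PBMC-hCG against IF, PBMC-hCG against PBMC, PBMC against control, PBMC-hCG against control) and the pathway genes were 39, 0, 19, 0, 34 and 36. Of all tested genes 22.2%, 0%, 17.2%, 0.0107%, 19.4% and 32.5% were called with the block, in the same order of comparisons. Depth is unknown from TPM, so counting error cannot be separated from the spread between 5 mice.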

Other observations

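Areg, a ligand of EGFR, was not tested because it was listed at 0 in 4 libraries, and it was singled out after its values were seen. It ran from 0 to 17.2 TPM in control (median 10.2), from 0 to 34.2 TPM in IF (median 11.2), from 1.01 to 25.8 TPM in PBMC (median 3.57) and from 0 to 1.75 TPM in PBMC-hCG (median 0.160). In 4 of 4 groups the mouse with the most Areg was also the mouse with the most Egfr, and the mouse with the least Egfr had the least Areg or was tied for it. Control replicate 2 and IF replicate 3, both listed at 0 for Areg, had 16.5 and 21.0 TPM of Egfr, and IF replicate 5, at 34.2 TPM of Areg, had 45.1 TPM of Egfr. Since Egfr moved within groups with a large part of all genes (median absolute r of 0.50), this is given as values only. Ereg, a further EGFR ligand, reached 2.28 TPM in IF and 1.53 TPM in control and was listed at 0 in all 5 PBMC-hCG libraries.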
